A study of Mus musculus with 6 samples.

Results

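The 9 genes described here mark the monocyte lineage of the mouse: Ly6c2, Cx3cr1, Cd14, Adgre1, Fn1, F13a1, Ms4a6c, Ms4a4c and Emb. They were taken by symbol from a list of monocyte progenitor and monocyte genes, with no measured value in the rule, and each matched 1 row of the 30803 genes in the deposited tables. The 9 genes were nevertheless chosen with earlier results of these data known, so counts among them are descriptions. Their transcripts were followed in 6 RNA sequencing libraries of bone marrow cells that the labels call hematopoietic stem cells. The donors were wild-type (WT) mice aged 12 months, with no treatment or engineered allele named for either group. The cells had been sorted by surface MHC class II into MHCII_lo (3 libraries) and MHCII_hi (3 libraries), written MHCII-lo and MHCII-hi below. The other surface markers of the gate, the number of donors and any pooling are not stated here. No label says that replicates are different animals, so p-values below measure only how these libraries spread, which may be technical. H2-Ab1, a class II chain gene named to check the sort, was higher in MHCII-hi (log2 fold change 0.71, limma adjusted p 1.63e-05).

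Monocytes are blood phagocytes that arise in the marrow from granulocyte-monocyte and monocyte-dendritic cell progenitors. The transcription factors PU.1, IRF8 and KLF4 direct this step, and the growth factor receptor CSF1R sustains the cells. Classical monocytes carry much Ly6C and CCR2 and leave the marrow through CCR2, while nonclassical monocytes carry little Ly6C and much CX3CR1 and patrol vessel walls. Adult stem cells carry little of most of these products.

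No header names the unit of the values, which were read as FPKM (fragments per kilobase of a transcript, relative to all fragments of its library). On that reading, levels can be set side by side between genes. A log2 fold change is the MHCII-hi mean less the MHCII-lo mean of log2(FPKM + 1), so changes of low genes come out too small. A gene was called when its limma p-value, adjusted by Benjamini-Hochberg over all 12049 tested genes, was under 0.05. Summed FPKM ran from 327364 to 346651 per library, and the number of reads behind them is unknown. Of summed FPKM, a set of 18 neutrophil markers took 2.87% in the MHCII-lo fraction and 16.0% in the other, and FPKM set each gene against the rest of its library. Across the tested genes the median change was −0.12 (log2). Rescaled to a total without these markers it was −0.01, with 3416 genes higher and 3100 lower in place of 2451 and 4883. Of 15 stem cell markers, 8 reached the mean of 1 FPKM needed for the test. The surface markers Kit (14.3 ± 0.175 and 13.9 ± 0.318 FPKM in MHCII-lo and MHCII-hi), Cd34 (15.4 ± 0.411 and 11.6 ± 0.230 FPKM) and Ly6a (10.4 ± 1.27 and 10.4 ± 1.07 FPKM), which progenitors can also carry, were among them, and Procr (0.170 ± 0.0600 and 0.543 ± 0.228 FPKM, SD, n = 3 each) and Slamf1 (0.217 ± 0.0808 and 0.257 ± 0.0404 FPKM) were not, although the Procr libraries of MHCII-hi all lay above those of MHCII-lo.

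The monocyte genes differed between the fractions in both directions. In MHCII-hi, 8 of the 9 were lower and 1, Cd14, was higher, all past the limma threshold. Over all tested genes 40.5% were called lower and 20.3% called higher. For each member the 3 libraries of one fraction lay wholly above those of the other, a pattern seen in 45.0% of all tested genes in the lower direction and 22.6% in the higher. The members' median log2 fold change was −0.72, and −0.59 with the neutrophil markers out of the total, where all 9 kept their call and direction. Their ratio of means among the 8 lower genes ran from 1.38-fold (Adgre1) to 3.77-fold (Cx3cr1) in favour of MHCII-lo, and 3 of them, Cx3cr1, Ms4a6c and Fn1, were at least 2-fold lower. Of all 12049 tested genes, 383 were at least 2-fold lower by mean FPKM. In bulk libraries, fewer cells of a type and less RNA per cell cannot be told apart.

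**Figure D1:**
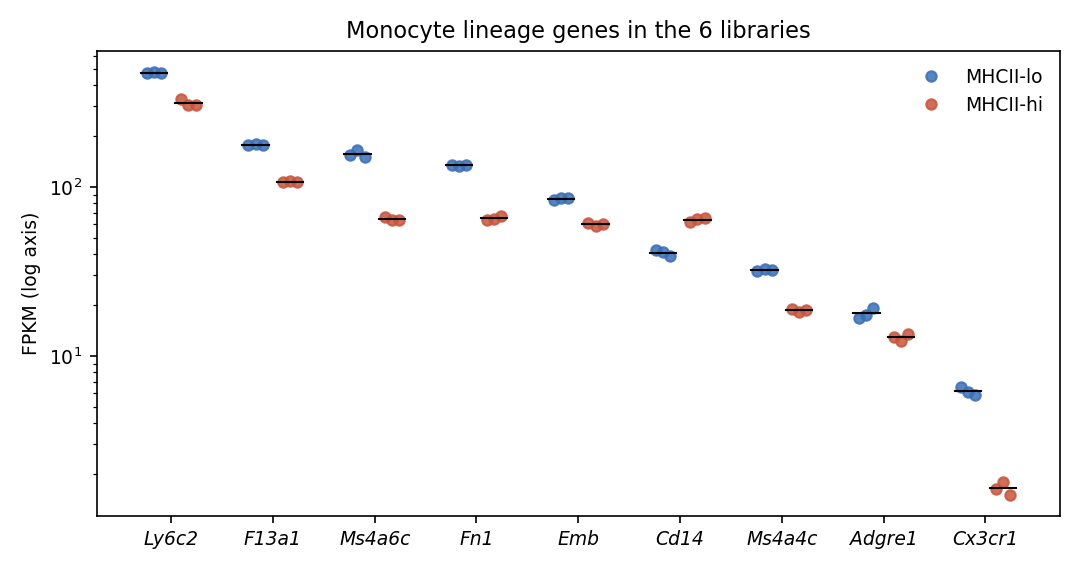
FPKM on a log axis of the 9 monocyte lineage genes, 1 point per library and a black line at the mean of each fraction, ordered by the MHCII-lo mean. The MHCII-lo points lie above the MHCII-hi points for 8 genes and below them for Cd14.

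Ly6c2 encodes Ly6C, the surface antigen by which classical monocytes are told from nonclassical ones. It was the most abundant member, at 474, 480.1 and 469.8 FPKM in the MHCII-lo libraries and 332, 308 and 307 FPKM in the MHCII-hi libraries. Every MHCII-lo library was higher than every MHCII-hi library, and the first MHCII-hi library stood somewhat above the other two. The means of 475 ± 5.14 and 315 ± 14.4 FPKM differed by a log2 fold change of −0.59 (SE 0.0324, limma adjusted p 8.27e-06). The gene has a near copy, Ly6c1, on the same chromosome. Of the 50-base words in its annotated transcripts, 13.9% also occur in Ly6c1 transcripts, so part of its reads could have been assigned to either gene. Ly6c1 was listed at 81.9, 48.1 and 59.6 FPKM in MHCII-lo and at 36.3, 52.7 and 47.6 FPKM in MHCII-hi. These libraries overlapped, and the difference did not pass the limma test (−0.45, adjusted p 0.102), although it did without MHCII-lo replicate 2 (−0.62, adjusted p 0.0351). The value was −0.25 (limma adjusted p 0.261) without MHCII-lo replicate 1 and −0.30 (limma adjusted p 0.271) without MHCII-hi replicate 1. With both genes added together, an alternative chosen after seeing the data, the log2 fold change was −0.57 (limma adjusted p 3.00e-06). Neutrophils, plasmacytoid dendritic cells and plasma cells can also carry Ly6C. All 18 neutrophil markers rose, and their share of the summed values went from 2.87% (MHCII-lo) to 16.0% (MHCII-hi). Of the 6 tested genes of 10 plasmacytoid markers, 5 were lower and 0 higher (summed level 59.7 to 60.3 FPKM in MHCII-lo against 30.4 to 33.5 in MHCII-hi), and for plasma cells 4 of the 7 tested of 8 markers rose and 0 fell (254 to 256 and 322 to 330 FPKM). The part of these cell types, neutrophils included, in the level of Ly6c2 was not tested.

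Of the 3 receptors, Cx3cr1 and Adgre1 fell and Cd14 rose. Cx3cr1 encodes the receptor for fractalkine, a chemokine bound to vessel walls, and marks monocyte-dendritic cell progenitors and nonclassical monocytes. It was the least abundant member, with 6.58, 6.08 and 5.89 FPKM in MHCII-lo against 1.62, 1.79 and 1.51 FPKM in MHCII-hi. MHCII-hi held 26.5% of the MHCII-lo level, and the lowest MHCII-lo library was still 3.29 times the highest MHCII-hi library. On the log2 scale the change was −1.44 (SE 0.0649, limma adjusted p 3.02e-06), a drop that only 0.266% of tested genes exceeded. Because the gene is low, the size depends on the pseudocount. With a pseudocount of 5 it was −0.75, still called (limma adjusted p 2.98e-06), and with 0.1 it was −1.85. Its ligand gene Cx3cl1 was near 0 in both fractions (0.05 ± 0.0361 and 0.0600 ± 0 FPKM), too low to be tested.

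Adgre1 encodes F4/80, an adhesion receptor of macrophages that monocytes and eosinophils carry as well. Its libraries read 16.9, 17.5 and 19.3 FPKM in MHCII-lo against 13.02, 12.3 and 13.6 FPKM in MHCII-hi. The groups did not overlap, but this was the smallest change among the 9 genes, at a log2 fold change of −0.43 (SE 0.0579, limma adjusted p 0.000661). Of tested genes, 14.4% fell further. Of 9 eosinophil markers, all tested, 7 were lower in MHCII-hi and 1 higher, and their summed level went from between 5406 and 5450 FPKM to between 2309 and 2316 FPKM. Prg2 was the highest (3670 ± 34.5 and 1570 ± 7.11 FPKM). Siglecf fell less (11.4 ± 0.753 to 10.2 ± 0.0569 FPKM). Il5ra (2.67 ± 0.565 and 2.22 ± 0.390 FPKM) was not called, and Ccr3 rose (1.35 ± 0.0651 to 1.77 ± 0.145 FPKM). The part of eosinophil RNA in the level of Adgre1 was not tested. Among its relatives of the same receptor family, Adgre4 was lower (6.43 ± 0.523 to 5.03 ± 0.276 FPKM, limma adjusted p 0.00661). That call ended when neutrophil markers were left out of the total (limma adjusted p 0.0501). Adgre5 stood at 46.3 ± 0.773 and 47.7 ± 0.764 FPKM and was not called as deposited (limma adjusted p 0.193), yet was higher by 0.12 to 0.17 on the log2 scale after median centring, median-ratio scaling or leaving out neutrophil markers.

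Cd14 encodes the co-receptor that hands bacterial lipopolysaccharide to Toll-like receptor 4, and both monocytes and neutrophils make it. It has 1 exon, on chromosome 18 from 36725067 to 36726798 (GRCm38). The 3 MHCII-lo libraries held 42.4, 41.5 and 38.8 FPKM, and the 3 MHCII-hi libraries 62.2, 64.7 and 65.5 FPKM. All MHCII-hi values lay above all MHCII-lo values, by at least 1.47-fold between the nearest libraries. Cd14 rose 1.57-fold (log2 fold change 0.64, SE 0.0396, limma adjusted p 1.57e-05), and 93.2% of tested genes had a lower log2 fold change. In the same libraries, each of the 18 neutrophil markers rose too, with a summed level of 9384 to 9459 FPKM in MHCII-lo against 54940 to 55610 FPKM in MHCII-hi. Their part in the rise of Cd14 was not tested. The other genes of the receptor complex did not all move with it. Myd88, an adaptor of Toll-like receptors, was higher (24.6 ± 0.528 to 37.8 ± 0.631 FPKM, limma adjusted p 4.17e-06). The remaining ones were named after their values were seen. Ticam2, an adaptor of the second signalling branch of Toll-like receptor 4, fell from 5.26 ± 0.366 to 2.48 ± 0.107 FPKM (limma adjusted p 3.23e-05), and Ticam1, the other adaptor of that branch, stood at 4.74 ± 0.318 and 4.35 ± 0.477 FPKM without a call. Lbp, the binding protein that brings lipopolysaccharide to CD14, rose from 20.1 ± 0.716 to 22.7 ± 0.924 FPKM (limma adjusted p 0.0128). Tlr4 rose from 2.89 ± 0.402 to 5.48 ± 0.0656 FPKM (limma adjusted p 0.000224). Ly96 went from 1.91 ± 0.579 to 2.53 ± 0.125 FPKM without a call (limma adjusted p 0.115), and with one when MHCII-lo replicate 2 was left out (0.0407). Its log2 fold change of 0.30 was 0.13 (limma adjusted p 0.211) without MHCII-lo replicate 3.

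Both secreted members were lower in MHCII-hi. Fn1 encodes fibronectin, an adhesive matrix protein that monocyte progenitors, fibroblasts and endothelium produce. It read 134.7, 133.3 and 134.8 FPKM in MHCII-lo against 64.1, 64.4 and 67.5 FPKM in MHCII-hi. The 3 MHCII-lo libraries differed by little, with a coefficient of variation of 0.624%, and MHCII-hi held 48.6% of their level. The log2 fold change was −1.03 (SE 0.0257, limma adjusted p 2.14e-07). Of 12 stromal and endothelial markers only 4 could be tested, of which 2 were lower and 0 higher. The 12 summed to 31.1 to 32.0 FPKM in MHCII-lo against 23.9 to 24.5 FPKM in MHCII-hi, and none was at 0 in all libraries. Vcam1 (13.9 ± 0.335 and 13.2 ± 0.376 FPKM) and Pecam1 (12.2 ± 0.338 and 7.27 ± 0.486 FPKM) were the highest of them. The 8 untested markers averaged under 1 FPKM, among them Col1a1 (0.560 ± 0.0624 and 0.283 ± 0.0723 FPKM). The part of stromal and endothelial cells in the level of Fn1 was not tested. The 5 listed integrin genes, whose products can bind fibronectin, were divided. Itgb1 fell (63.0 ± 1.58 to 45.3 ± 1.13 FPKM, limma adjusted p 1.93e-05), and so did Itga4 (24.6 ± 0.609 to 18.6 ± 0.545 FPKM) and Itga5 (8.77 ± 0.865 to 6.38 ± 0.308 FPKM). Itgb3 rose from 6.26 ± 0.233 to 7.89 ± 0.388 FPKM (limma adjusted p 0.00208). Itgav read 1.57 ± 0.145 and 1.85 ± 0.112 FPKM, with no call as deposited (limma adjusted p 0.126) and a higher call after median-ratio scaling (0.0423), median centring (0.0425) or leaving out neutrophil markers (0.0353). All but Itgb1 were named after their values were seen.

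F13a1 encodes the catalytic A subunit of coagulation factor XIII, the transglutaminase that cross-links fibrin, and it is made by monocytes and megakaryocytes. The MHCII-lo libraries read 178, 179.9 and 177 FPKM and the MHCII-hi libraries 107, 109 and 107 FPKM. Between the groups lay a gap of 1.63-fold from the lowest MHCII-lo to the highest MHCII-hi library, while the libraries of each group differed by about 1%, with coefficients of variation of 0.786% and 1.09%. F13a1 fell by 0.72 on the log2 scale (SE 0.0185, limma adjusted p 2.37e-07). Of the 9 tested of 12 megakaryocyte and platelet markers, 4 were higher and 3 lower. Their summed level was 50.6 to 52.5 FPKM in MHCII-lo against 46.2 to 47.9 FPKM in MHCII-hi. Ppbp, Tubb1 and Selp were lower. Among those higher were Pf4, Itga2b and Gp1ba, the last of which lost its call when any 1 library was left out. Pf4, a platelet chemokine, rose from 13.3 ± 0.775 to 16.0 ± 0.839 FPKM (limma adjusted p 0.00637), while Ppbp, another, fell from 11.0 ± 1.73 to 4.78 ± 0.825 FPKM (limma adjusted p 0.000523). Their part in the level of F13a1 was not tested.

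Ms4a6c and Ms4a4c encode small membrane-spanning proteins of the MS4A family, whose genes lie side by side on chromosome 19. Ms4a6c had 154, 165 and 151 FPKM in MHCII-lo against 66.8, 63.9 and 63.9 FPKM in MHCII-hi. It fell by 1.26 on the log2 scale (SE 0.0385, limma adjusted p 4.85e-07), the largest drop after Cx3cr1. Ms4a4c had 31.7, 32.6 and 32.5 FPKM in MHCII-lo against 18.9, 18.2 and 18.7 FPKM in MHCII-hi, a fall of 0.76 (SE 0.0291, limma adjusted p 1.39e-06). Neither gene's groups overlapped. The 2 did not fall by the same ratio, since Ms4a6c was 4.85 ± 0.211 times Ms4a4c in MHCII-lo and 3.48 ± 0.0638 times in MHCII-hi, with no overlap. Of the 50-base words in their transcripts, 5.85% of those of Ms4a6c recur in Ms4a6b and 7.73% of those of Ms4a4c in Ms4a4b. Reads from such stretches could have been shared with these neighbours.

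The rest of the MS4A family moved less evenly. Of the 7 other members that could be tested of 14 listed, 2 were higher, 3 were lower and 2 did not pass the test. Ms4a6b fell from 23.5 ± 0.914 to 11.5 ± 0.627 FPKM (log2 fold change −0.97, limma adjusted p 5.31e-06), Ms4a8a from 6.78 ± 0.481 to 4.72 ± 0.844 FPKM and Ms4a4b from 2.67 ± 0.0603 to 1.75 ± 0.301 FPKM. Ms4a6d rose from 11.2 ± 0.737 to 15.2 ± 0.498 FPKM. Ms4a3, a gene of granulocyte-monocyte progenitors, was the most abundant of the family and rose from 256 ± 2.61 to 285 ± 6.51 FPKM. Its log2 fold change of 0.15 became 0.27 after median-ratio scaling. Ms4a4a read 13.1 ± 1.48 and 12.8 ± 1.37 FPKM. Ms4a2, the β chain of the IgE receptor of mast cells and basophils, read 11.6 ± 5.28 and 10.7 ± 0.415 FPKM, with a call in the lower direction only when MHCII-lo replicate 1 was left out (−0.42, limma adjusted p 0.00136).

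**Figure D2:**
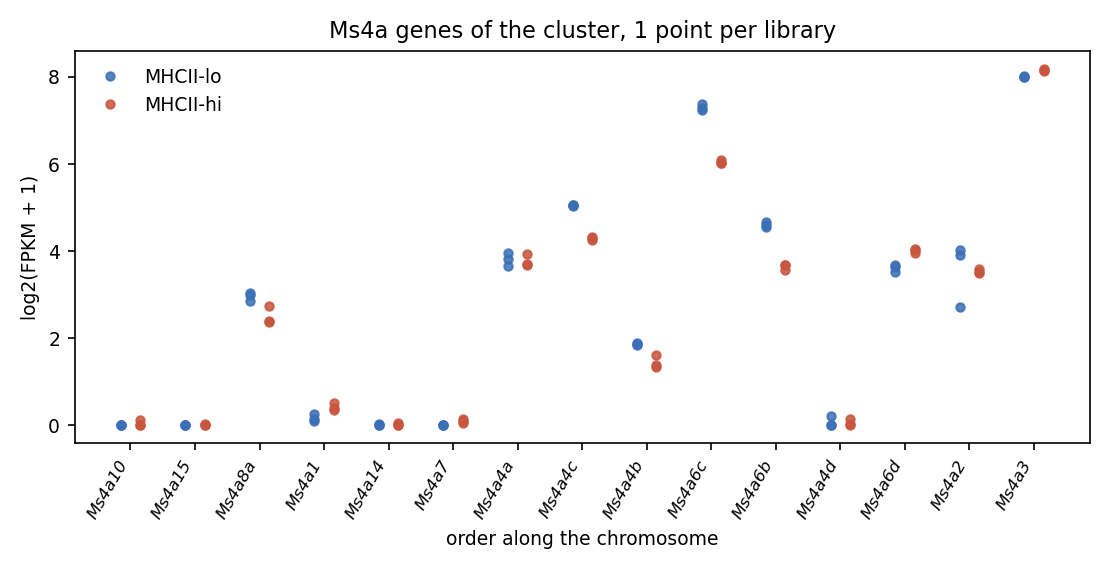
Level of the Ms4a genes in the tables as log2(FPKM + 1), in their order along the chromosome and 1 point per library. Ms4a4c, Ms4a4b, Ms4a6c and Ms4a6b are lower in MHCII-hi, while Ms4a6d and Ms4a3 at the end of the cluster are higher.

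Emb encodes embigin, an immunoglobulin-type membrane protein that escorts monocarboxylate transporters to the cell surface. It stood at 83.6, 86.1 and 86.6 FPKM in the MHCII-lo libraries and 61.0, 59.1 and 59.96 FPKM in the MHCII-hi libraries. These groups lay apart by at least 1.37-fold, and the log2 fold change was −0.50 (SE 0.0248, limma adjusted p 4.76e-06). Bsg, which encodes basigin, the related escort, fell as well (89.0 ± 2.53 to 66.6 ± 0.692 FPKM, limma adjusted p 1.91e-05). Slc16a3, the lactate exporter MCT4, rose from 6.09 ± 0.275 to 33.7 ± 0.885 FPKM (log2 fold change 2.29, limma adjusted p 4.33e-08). Of the other transporter genes listed, both named after their values were seen, Slc16a1 was lower as deposited (21.7 ± 0.386 to 19.04 ± 1.04 FPKM, limma adjusted p 0.0106). It lost that call after median-ratio scaling (limma adjusted p 0.242), median centring (0.0902) or leaving out neutrophil markers (0.362). Slc16a7 read 1.22 ± 0.139 and 0.680 ± 0.0346 FPKM, too low to be tested.

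**Figure D3:**
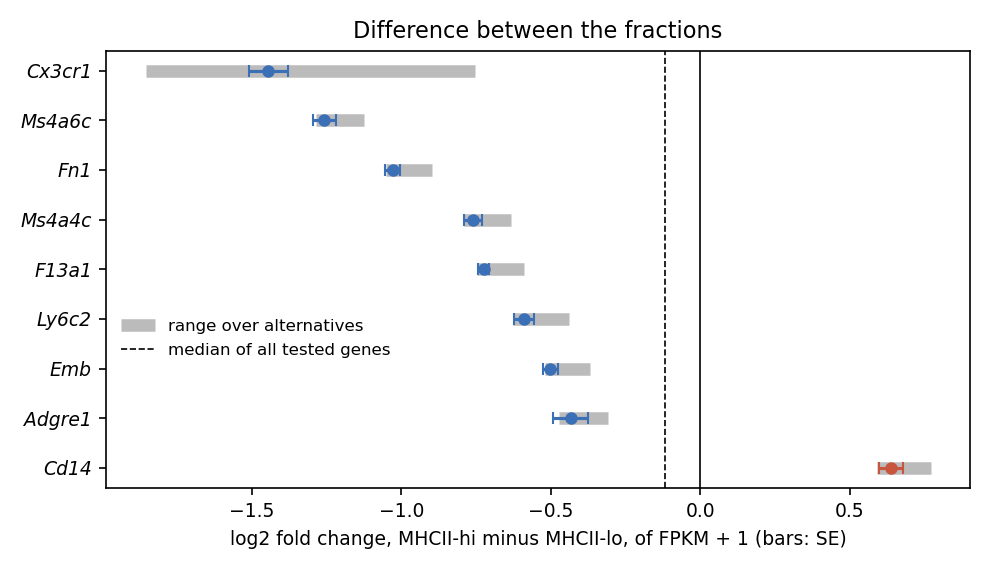
Log2 fold change of each monocyte lineage gene, MHCII-hi minus MHCII-lo, as a point with its standard error, and as a grey band the range over the alternative processings. The bands of the 8 lower genes stay below 0 and that of Cd14 above it, and the dashed line marks the median of all tested genes at −0.12.

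The order of levels among the 9 genes differed in part between the fractions. In MHCII-lo it ran Ly6c2, F13a1, Ms4a6c, Fn1, Emb, Cd14, Ms4a4c, Adgre1 and Cx3cr1, and the libraries of each pair of neighbours lay apart. In MHCII-hi, Fn1 (65.3 ± 1.88 FPKM), Ms4a6c (64.9 ± 1.65 FPKM) and Cd14 (64.2 ± 1.71 FPKM) overlapped and cannot be ordered. The 9 genes summed to 1126 ± 13.8 FPKM in MHCII-lo against 711 ± 13.8 FPKM in MHCII-hi. Of this sum, Ly6c2 made up 42.2 ± 0.128% and 44.4 ± 1.18%, and F13a1 15.8 ± 0.0727% and 15.2 ± 0.432%. Ms4a6c went from 13.9 ± 0.495% to 9.13 ± 0.0615%, and Fn1 from 11.9 ± 0.219% to 9.19 ± 0.378%. Cd14 went from 3.63 ± 0.154% to 9.03 ± 0.405% of the sum. Within a library the ratio of Cd14 to Fn1 was 0.315, 0.311 and 0.288 in MHCII-lo and 0.971, 1.005 and 0.971 in MHCII-hi, with no overlap between the fractions.

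The genes lie on 7 chromosomes. In the GENCODE annotation of GRCm38, Ly6c2 spans chromosome 15, 75108158 to 75111970, and Cx3cr1 chromosome 9, 119901616 to 120069879, an interval that reaches over several other genes through a long alternative transcript. Adgre1 spans chromosome 17, 57358691 to 57483527. Fn1 spans chromosome 1, 71585520 to 71653200, and F13a1 chromosome 13, 36867178 to 37050244. Ms4a6c spans chromosome 19, 11469366 to 11482192, Ms4a4c chromosome 19, 11404770 to 11427246, and Emb chromosome 13, 117208536 to 117274415. On the opposite strand, the noncoding gene BE692007 shares 1088 exon bases with Ms4a6c and Gm17509 shares 686 with Emb. No source used here says that strand was used in quantification, and without it reads of such partners cannot be told apart.

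The promoters of 4 of the genes that fell are shown, from the largest fall (Cx3cr1) through Ms4a6c and F13a1 to one of the smaller (Emb), to set side by side the sequence just before their starts. Each is the 250 bases before a transcription start in the RefSeq annotation of GRCm38.p6, read 5′ to 3′ on the gene's strand. Cx3cr1 is at chr9:120068297-120068546 (minus strand), Ms4a6c at chr19:11469118-11469367 (plus strand), F13a1 at chr13:37050245-37050494 (minus strand) and Emb at chr13:117220323-117220572 (plus strand). Capitals mark matches to any of 4 motifs searched on both strands: AGGAAGT for ETS factors such as PU.1, TTNNGNAA for C/EBP, GAAANNGA for IRF and TGANTCA for AP-1.
Cx3cr1: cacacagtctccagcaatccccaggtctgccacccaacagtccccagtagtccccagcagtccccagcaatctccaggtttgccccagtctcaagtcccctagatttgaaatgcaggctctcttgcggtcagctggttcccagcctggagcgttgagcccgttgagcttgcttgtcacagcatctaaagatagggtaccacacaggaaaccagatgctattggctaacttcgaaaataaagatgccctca
Ms4a6c: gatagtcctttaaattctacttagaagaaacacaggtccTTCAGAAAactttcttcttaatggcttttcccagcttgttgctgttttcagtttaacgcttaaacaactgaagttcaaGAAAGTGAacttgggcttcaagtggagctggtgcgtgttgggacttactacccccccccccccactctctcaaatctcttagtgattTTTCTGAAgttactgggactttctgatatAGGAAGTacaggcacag
F13a1: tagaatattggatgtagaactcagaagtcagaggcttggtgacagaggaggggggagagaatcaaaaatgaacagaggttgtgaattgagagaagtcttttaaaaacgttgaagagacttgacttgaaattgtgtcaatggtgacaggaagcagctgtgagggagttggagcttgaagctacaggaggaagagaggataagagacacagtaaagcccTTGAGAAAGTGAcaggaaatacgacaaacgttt
Emb: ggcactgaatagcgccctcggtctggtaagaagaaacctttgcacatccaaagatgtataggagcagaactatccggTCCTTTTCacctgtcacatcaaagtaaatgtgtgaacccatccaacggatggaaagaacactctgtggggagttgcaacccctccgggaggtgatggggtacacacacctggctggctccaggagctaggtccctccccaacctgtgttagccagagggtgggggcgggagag

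The Ms4a6c window held 1 ETS match, 2 C/EBP matches and 1 IRF match. In F13a1, a C/EBP match and an IRF match overlapped, beginning 33 and 29 bases before the start. Emb held 1 IRF match, on the minus strand, and these letters were not found in the Cx3cr1 window. Windows were at hand for 6 members (Ly6c2, F13a1, Ms4a6c, Ms4a4c, Cx3cr1 and Emb). Of these 6 genes, 3 held an ETS match, 4 a C/EBP match, 3 an IRF match and 0 an AP-1 match in at least 1 of their windows. By window the counts were 4, 5, 3 and 0 of 8. Ly6c2 and F13a1 have 2 windows each, and those of Ly6c2 overlap over most of their length. The ETS match of F13a1 lies in its other window, which is not printed. For both Ly6c2 windows, the bases just after the start were not found in an annotated Ly6c2 transcript. Those after the other windows were found in transcripts of their genes. Over all 32851 windows of the same length, 7.69% held the ETS letters, 36.8% the C/EBP letters, 18.1% the IRF letters and 6.75% the AP-1 letters. A match describes letters only.

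Other genes of the lineage and its products went both ways. The 6 lists held 99 genes, of which 17 are partners of the proteins that the 9 genes encode and the rest monocyte or macrophage genes. Of these, 80 could be tested, and 37 were lower in MHCII-hi, 29 higher and 14 not called. Over all 12049 tested genes, 40.5% were called lower and 20.3% higher, which is also the background of the single lists that follow. With neutrophil markers left out of the total, 33 were lower and 34 higher, beside 3100 lower and 3416 higher of all tested genes. After median-ratio scaling 35 were lower and 33 higher, beside 3282 lower and 3258 higher of all tested genes. Among 12 monocyte transcription factors, 6 of the 11 tested were lower and 5 higher, with a median log2 fold change of −0.31. Irf8, which directs progenitors toward monocytes and dendritic cells, fell by 1.70 on the log2 scale (42.1 ± 0.714 to 12.3 ± 0.464 FPKM). Irf5 (33.2 ± 0.252 to 13.1 ± 0.875 FPKM), Zeb2 (12.4 ± 0.172 to 5.72 ± 0.215 FPKM) and Klf4 (58.9 ± 2.13 to 30.2 ± 0.594 FPKM), the factor needed for Ly6C-high monocytes, fell too. Spi1, which encodes PU.1 and was chosen after its values were seen, rose from 60.5 ± 2.45 to 84.3 ± 1.43 FPKM (limma adjusted p 2.93e-05).

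Receptors and ligands of the lineage were also divided, with 5 of 9 tested lower and 4 higher. Csf1r, the receptor for the growth factor M-CSF, fell by 1.07 on the log2 scale (limma adjusted p 2.55e-06), and Ccr2, the receptor that brings classical monocytes out of the marrow, fell by 0.96 (limma adjusted p 2.65e-07). Ccr1, a chemokine receptor shared with neutrophils, rose from 26.1 ± 0.265 to 98.5 ± 2.75 FPKM (limma adjusted p 2.06e-08). Csf2rb, the shared chain of the receptors for GM-CSF, IL-3 and IL-5, rose from 25.0 ± 0.0458 to 49.8 ± 0.681 FPKM.

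The 26 other progenitor and classical monocyte genes could all be tested. Of these, 14 were lower, 8 higher and 4 not called, with a median log2 fold change of −0.36. Tifab, an adaptor-like gene of myeloid progenitors, went from 53.6 ± 0.840 to 21.3 ± 0.248 FPKM, Mpeg1, the pore-forming protein perforin-2 of phagocytes, from 188 ± 2.50 to 91.5 ± 1.83 FPKM and Plac8 from 710.3 ± 4.07 to 467 ± 3.88 FPKM. Chil3, a chitinase-like protein that is also on the neutrophil list, rose by 1.74 on the log2 scale. Of 15 tested nonclassical monocyte genes, 6 were lower and 5 higher, with a median of 0.02. Cd300ld, an activating receptor of myeloid cells, rose from 2.20 ± 0.234 to 23.1 ± 0.492 FPKM, Fcgr4, an IgG receptor, from 8.18 ± 0.611 to 34.4 ± 1.80 FPKM and Pglyrp1, a peptidoglycan-binding granule protein, from 58.7 ± 0.191 to 199.5 ± 2.69 FPKM. Neutrophils make these 3 products as well. Ear2, an RNase that is also on the eosinophil list, fell from 415 ± 12.7 to 205 ± 4.24 FPKM.

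Resident macrophage genes were mostly near 0. Of 16, only 4 could be tested, Timd4 and Marco were at 0 in all 6 libraries, and the summed level was 33.0 to 36.0 FPKM in MHCII-lo against 45.2 to 49.3 FPKM in MHCII-hi. Slc40a1, the iron exporter, rose from 5.17 ± 0.154 to 11.3 ± 0.249 FPKM and Hmox1, which breaks down heme, from 9.99 ± 1.02 to 16.9 ± 1.12 FPKM. Vcam1 (13.9 ± 0.335 and 13.2 ± 0.376 FPKM) and the scavenger receptor Msr1 (1.71 ± 0.0700 and 1.83 ± 0.172 FPKM) were not called. Among the untested genes, Cd163 (1.39 ± 0.185 to 0.487 ± 0.0666 FPKM) and Mrc1 (0.953 ± 0.0808 to 0.490 ± 0.0954 FPKM) lay lower in MHCII-hi without overlap. C1qa (0.0667 ± 0.0115 to 0.620 ± 0.207 FPKM), C1qc (0.0600 ± 0.0346 to 0.577 ± 0.112 FPKM) and Mertk (0.0433 ± 0.0404 to 0.127 ± 0.0153 FPKM) lay higher.

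**Figure D4:**
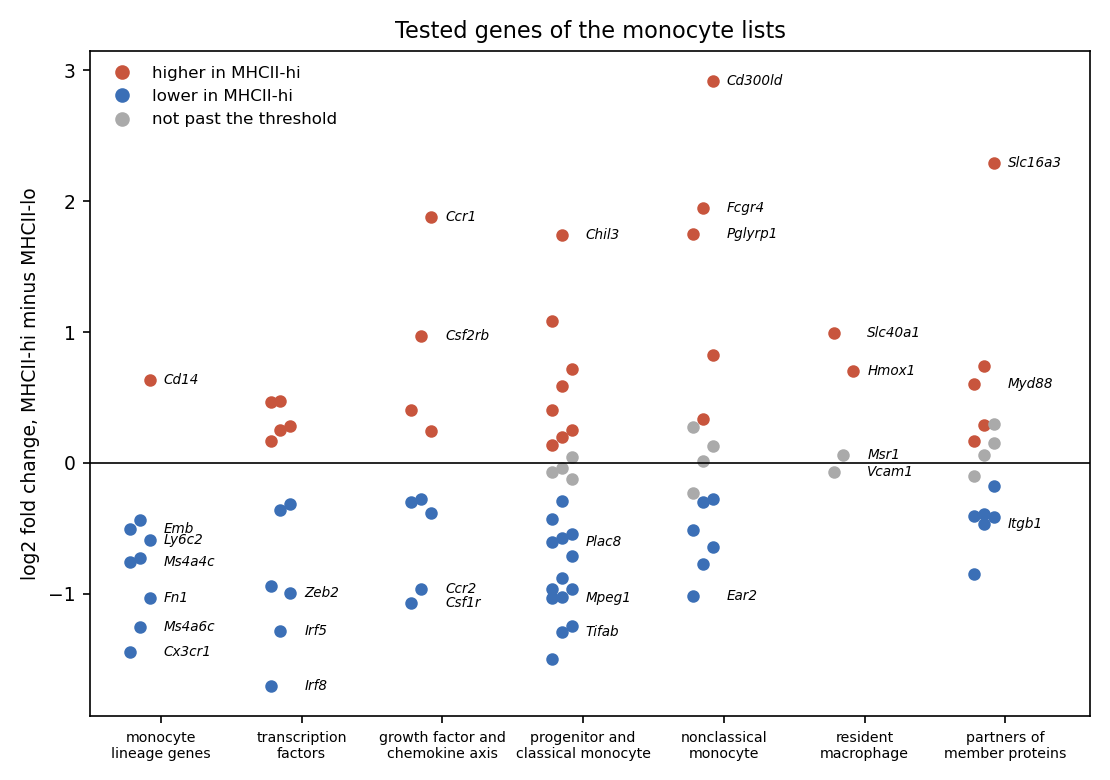
Log2 fold change, MHCII-hi minus MHCII-lo, of each tested gene of the monocyte lineage list and of 6 further lists, coloured by whether it was called higher, lower or neither. Each further list but that of resident macrophages holds genes called in both directions, from Irf8 at −1.70 to Cd300ld at 2.92.

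The Ly6 relatives of Ly6c2 likewise differed among themselves. Of 5 tested, Ly6e (249 ± 2.59 to 146.8 ± 2.93 FPKM) and Ly6d (8.26 ± 0.459 to 4.70 ± 0.760 FPKM) fell, and Ly6g, the antigen by which neutrophils are stained, rose from 13.1 ± 1.08 to 115 ± 4.50 FPKM. Ly6a, which encodes the stem cell marker Sca-1, stood at 10.4 ± 1.27 and 10.4 ± 1.07 FPKM and was not called (limma adjusted p 0.997). Markers of conventional dendritic cells, which share progenitors with monocytes, were lower for 5 of 6 tested genes of 10 and higher for 0, and summed to 31.0 to 32.7 FPKM in MHCII-lo against 17.3 to 18.9 FPKM in MHCII-hi. The part of dendritic cells in the levels of Cx3cr1, Irf8 and Zeb2, which they also express, was not tested.

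Markers of cells further from the monocyte lineage were read beside these genes. Those of erythroid cells were lower for 11 of 12 tested genes and higher for 0, those of basophils and mast cells lower for 5 and higher for 1 of 7 tested, and those of T and NK cells lower for 5 and higher for 0 of 9 tested. As deposited, 40.5% of all tested genes were called lower and 20.3% higher, and these marker counts were not repeated after rescaling. Among B cell markers 2 of 11 could be tested, of which 1 was higher and 0 lower. Stem cell markers were higher for 4 and lower for 2 of the 8 that could be tested of 15, with a summed level of 46.2 to 49.6 FPKM in MHCII-lo against 50.9 to 53.7 FPKM in MHCII-hi. Of the 17 listed partners of the proteins that the 9 genes encode, 15 were tested, with 6 lower, 5 higher and 4 not called. No marker of the 12 lists of other cell types was at 0 in all 6 libraries.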

How the data were processed

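For each library the authors deposited a list of gene names and values. Per the submitters' processing notes, fastp, HISAT2 and StringTie were run on the build GRCm38 (mm10), whose versions and settings are not stated here. Per the labels' protocols, a stranded mRNA kit was used. No header names the unit of the deposited values, which was inferred to be FPKM: values have 2 decimals, column sums differ, and StringTie writes FPKM. A step worth 1 fragment was looked for among weakly expressed genes with a single exon (600 to 4000 bases). None was clear (best mean cosine 0.0575 to 0.105), so depth is unknown, and neither counting intervals nor a count model could be used.

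Genes averaging at least 1 FPKM were compared as log2(FPKM + 1) with limma 3.58.1 (R 4.3.3), with an intensity trend and group as the only term. Repeated symbols gave 70 extra rows, which stayed in the fit, and the row of highest mean carried the symbol. The 9 members and the 21 lists (263 entries, of which Ly6h, Ms4a5 and Ms4a13 were not found) were chosen with earlier results of these data known, so their counts are descriptions. Named genes were all members, the 4 genes with the smallest p of each monocyte list together with Irf8, Klf4, Csf1r and Ccr2, family genes of at least 1 FPKM on average, and defining markers of other cells. H2-Ab1 and Cx3cl1 were added as the sort check and the ligand of Cx3cr1. Spi1 and further genes of the partner, platelet, stem cell, stromal, eosinophil, macrophage, plasma cell and plasmacytoid lists were named after their values were seen. On simulated data of 12049 genes made for this comparison, limma found 50% of 50 genes changed 1.25-fold. It found 86% of 50 genes at 1.5-fold, again 86% at 2-fold, and 98% at 4-fold, while 3 of its 163 calls were false. These folds were of FPKM + 1, so low genes would need larger changes of FPKM. Far fewer genes were changed than were called in the data, in random directions and without the neutrophil marker shift. The rates may therefore not carry over. Alternatives changed the pseudocount, the filter, the scaling or the intensity trend, added a replicate block, or omitted single libraries. Summing Ly6c1 with Ly6c2 was added after seeing the data. Python 3.11.15 with pandas 2.3.3 was used for all else.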

Additional observations from a re-analysis of the deposited data

How the results depend on the processing

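Over 17 alternatives (16 for Cx3cr1, which a minimum mean of 5 FPKM left out) the limma calls and directions of the 9 members held in all 152 values, from −0.47 to −0.31 on the log2 scale for Adgre1 and from 0.59 to 0.77 for Cd14. The members' median of −0.72 was −0.66 with a pseudocount of 5 and also with a minimum mean of 5 FPKM, −0.61 after median-ratio scaling, −0.65 after median centring and −0.59 with neutrophil markers out of the total. That last total gave 3100 tested genes lower against 4883. Called genes were 33.4% higher as deposited, 49.8% after median-ratio scaling (3258 higher, 3282 lower), 41.2% after quantile normalization, 45.0% after median centring and 52.4% with neutrophil markers left out. Genes that changed sign were never called in either direction when they did so. Ms4a2 stood at 0.0074 with a pseudocount of 0.1, 0.10 after median-ratio scaling, 0.036 after quantile normalization, 0.069 after centring, 0.12 without neutrophil markers, and between −0.42 and 0.23 with each library left out. Ms4a4a stood at 0.074, 0.0061, 0.039 and 0.089 under these 4 scalings and between −0.12 and 0.038 with each library left out, and Vcam1 at 0.038 after median-ratio scaling, 0.0015 after centring and 0.053 without neutrophil markers. Kit stood at 0.065 after median-ratio scaling, 0.029 after centring and 0.080 without neutrophil markers, and Ticam1 at 0.0067 in the last. Ly6a lay between −0.082 and 0.079 with each library left out. The cause of these changes was not tested. Samples of the same replicate number did not deviate together (correlations −0.0418, −0.0401 and −0.0422), while pairs of different numbers gave 0.00794 to 0.0356. No label says that the numbers pair samples, and such small correlations cannot show whether libraries share a donor or batch. With a replicate block the members gave 8 lower and 1 higher, and all tested genes 4662 lower and 2309 higher. Depth is unknown, so the counting error of low genes such as Cx3cr1 in MHCII-hi cannot be given.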
